A study of Mus musculus with 4 samples.

Results

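Nuclear receptors are transcription factors that bind small lipophilic ligands, or in the orphan receptors no established ligand, and change the transcription of genes near their binding sites. The set described here is 36 receptor genes chosen by name, of 55487 rows in the deposited table, and every one of them has a row with its symbol. Of these, 26 had a normalized read count of 10 or more in at least 2 of the 4 libraries and entered the comparison, and 10 did not. RNA came from freshly isolated pancreatic islets of 30-week-old C57BL/6 mice. The control group carried Ggcx flox/flox alleles without Cre (n = 2 libraries), and the knockout group carried Ggcx flox/flox with Pdx1-Cre (n = 2 libraries). Both groups were floxed, the Pdx1 promoter directs Cre to the pancreatic lineage, and no library carried Cre with intact Ggcx, so the transgene and the loss of Ggcx cannot be told apart. Each library pooled islets from 2 mice. Ggcx encodes the vitamin K-dependent gamma-glutamyl carboxylase.

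Most receptors of the set share a DNA-binding domain of paired zinc fingers and a ligand-binding domain that recruits coactivators or corepressors. Retinoid X receptors are the shared partners with which retinoic acid receptors, PPARs, liver X receptors, the bile acid receptor and the vitamin D receptor bind DNA, typically at repeated six-base elements whose spacing differs by partner. Steroid receptors are held by chaperones until hormone binds. In islets, HNF4A is known for its role in beta-cell function and as a monogenic diabetes gene.

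Promoter windows from RefSeq (build GRCm38.p6, running from 250 bases before to 50 bases after a transcript start) were found for 33 of the 36 genes, in 50 windows. They are shown for the most abundant receptor gene, Vdr, and for Rarb, whose window holds a repeat of the kind bound by its own protein family. The window of Cyp26a1, which encodes a retinoic acid-degrading enzyme, is shown because it holds a repeat of the same spacing. Capitals mark GGGCGG in Vdr, and in the others a direct repeat of 2 hexamers with a spacer of 5. Each hexamer reads AGGTCA in its textbook form, and the variant AGTTCA was also accepted, as were the variant GGGTCA and the variant GGTTCA. The Vdr window is chr15:97908247-97908546, minus strand, the Rarb window is chr14:16575427-16575726, minus strand, and the Cyp26a1 window is chr19:37697558-37697857, plus strand.
Vdr: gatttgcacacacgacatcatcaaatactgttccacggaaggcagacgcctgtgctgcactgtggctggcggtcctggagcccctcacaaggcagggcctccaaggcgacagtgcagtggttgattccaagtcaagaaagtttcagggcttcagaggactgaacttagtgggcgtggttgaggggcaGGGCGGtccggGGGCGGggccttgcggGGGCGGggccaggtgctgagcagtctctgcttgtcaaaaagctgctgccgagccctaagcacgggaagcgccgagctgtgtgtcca
Rarb: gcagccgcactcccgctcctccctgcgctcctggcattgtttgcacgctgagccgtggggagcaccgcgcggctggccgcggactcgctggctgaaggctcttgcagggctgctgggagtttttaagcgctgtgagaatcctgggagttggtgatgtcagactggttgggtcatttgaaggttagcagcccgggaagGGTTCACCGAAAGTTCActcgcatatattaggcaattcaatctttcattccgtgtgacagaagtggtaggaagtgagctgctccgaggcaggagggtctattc
Cyp26a1: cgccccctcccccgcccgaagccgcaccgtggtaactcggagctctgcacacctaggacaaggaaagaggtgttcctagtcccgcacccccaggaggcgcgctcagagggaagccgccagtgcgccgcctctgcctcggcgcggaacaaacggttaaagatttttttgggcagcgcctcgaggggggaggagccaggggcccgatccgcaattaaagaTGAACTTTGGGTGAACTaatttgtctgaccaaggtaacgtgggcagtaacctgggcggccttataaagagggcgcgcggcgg

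Both strands of each window were searched. The Vdr window held 3 copies of GGGCGG, a sequence found in 35.7% of all 32851 promoter windows and in those of 17 of the 33 receptor genes. The Rarb repeat covered bases 198 to 214 of its window and reads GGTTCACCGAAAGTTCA. Cyp26a1 held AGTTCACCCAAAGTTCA on the strand opposite to the one printed. A repeat with a spacer of 5 was present in 0.0974% of all windows, and in 1 of the 33 receptor genes, Rarb. Repeats with spacers of 0 to 4 were in no window of the set. Single hexamers were in 43.7% of all windows and in those of 18 of the 33 receptor genes. A match describes the letters of a window and is not a measured binding site.

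The libraries held 47624630 to 51756221 reads assigned to genes. Ggcx stood at 3971 and 3981 normalized counts in the controls and at 234.2 and 643.4 in the knockouts (log2 fold change -3.35 ± 0.35 standard error, limma adjusted p = 0.0163). Beta-cell markers marked the tissue as islet, with 8 of 8 tested and a summed level of 10186244 to 10695414 in controls and 10710656 to 11035558 in knockouts. Summed markers of many cell types separated the genotypes without overlap, as did 45.0% of single tested rows. The sums for beta, delta and PP cells, lymphocytes, Schwann cells and hepatocytes were higher in knockouts. Singly, 4 of the 8 beta-cell markers were above 0 and 4 below (median log2 fold change -0.02). All tested delta-cell (4), PP-cell (2) and Schwann-cell (4) markers were above 0. Lymphocytes and hepatocytes had 1 tested marker each. The PP sums nearly met, at 150919 in control column 2 and 151248 in knockout replicate 1. Acinar markers were lower (14396 and 15302 in controls, 7987 and 12059 in knockouts, 9 of 10 tested, all 9 below 0). Stellate cell and fibroblast markers were higher (1757 to 2312 against 2683 to 3514, 7 of 8 above 0), as were alpha-cell markers (1118862 to 1296444 against 1314430 to 1578545, 6 of 6 above 0). In those directions 0 acinar, 1 stellate and fibroblast and 2 alpha-cell markers had a limma adjusted p under 0.05. Over all tested rows 0.374% were lower and 0.247% higher by that test. Adipocyte markers were near 0, with Adipoq, Plin1 and Lep at 0 reads in every library.

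In islets the set was led by the vitamin D receptor gene. Vdr stood at 14405 and 16542 normalized counts in the controls and at 13696 and 13996 in the knockouts, and it took 30.4% to 34.3% of the summed level of the 36 genes, counted per kilobase of merged exons, in each library. On that scale its level was 2595 per kilobase (mean of 4 libraries), above 96.5% of tested rows. Nr3c1, the glucocorticoid receptor gene, followed at 993 per kilobase and stood above 89.3% of tested rows. The ranges of these genes over the 4 libraries did not meet each other or that of the next gene.

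Rxra, Nr2f6 and Nr1h4 came next in the order per kilobase, at 531, 480 and 464, and their neighbouring ranges overlapped. Rxra encodes the retinoid X receptor partner, Nr2f6 an orphan receptor of the COUP-TF group, and Nr1h4 the bile acid receptor FXR. Rxrb (360), Hnf4a (319) and Nr1h2 (308), the gene of liver X receptor beta, formed the next group. The 9 genes from Esrrg (232) to Esrra (173) came next, with neighbours overlapping from Esrrg down to Nr1h3. Of the 25 neighbouring pairs in the whole order, 16 had ranges that overlapped. Merged exons count every annotated exon of a gene, so the level per kilobase is understated for genes with long or many alternative exons, such as Nr2c2 with 14935 bases.

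**Figure D1:**
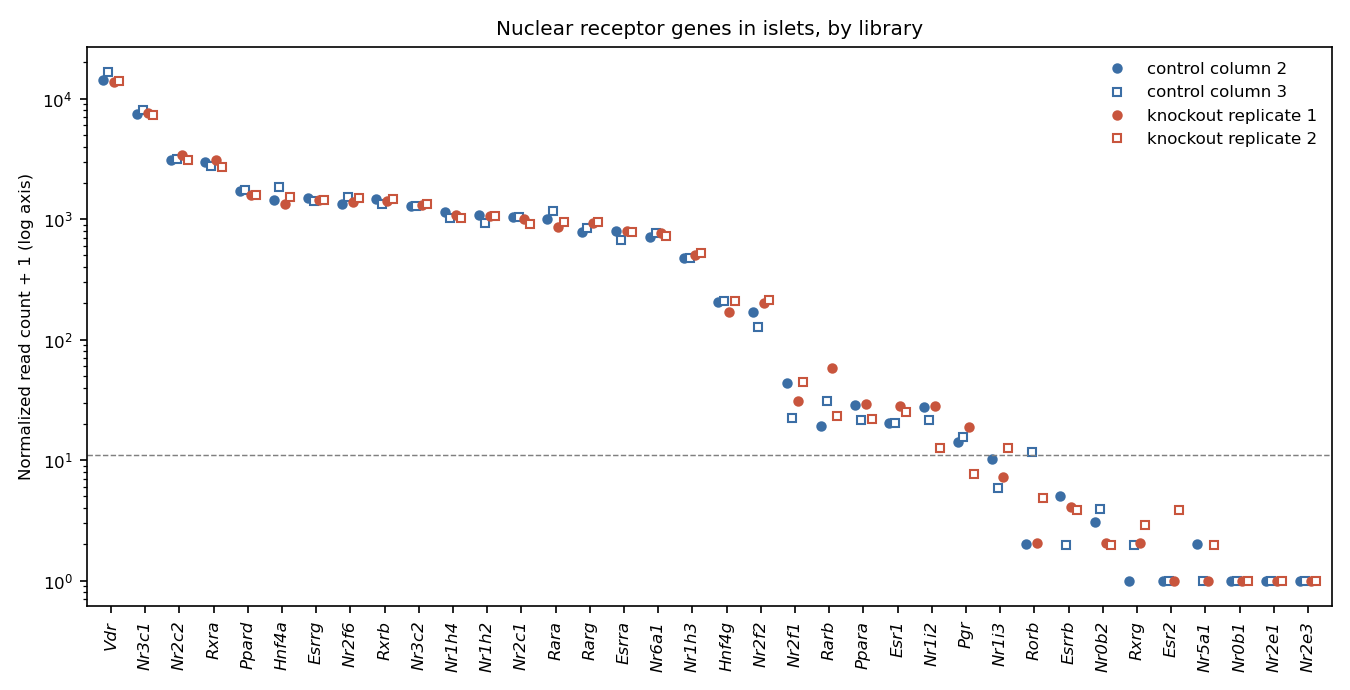
Normalized read count plus 1 (log axis) of the 36 receptor genes in each of the 4 libraries, in order of mean, with the dashed line at a count of 10. Vdr lies above all others, the 4 libraries of most abundant genes lie close together, and Nr0b1, Nr2e1 and Nr2e3 are at 0 reads in every library.

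**Figure D2:**
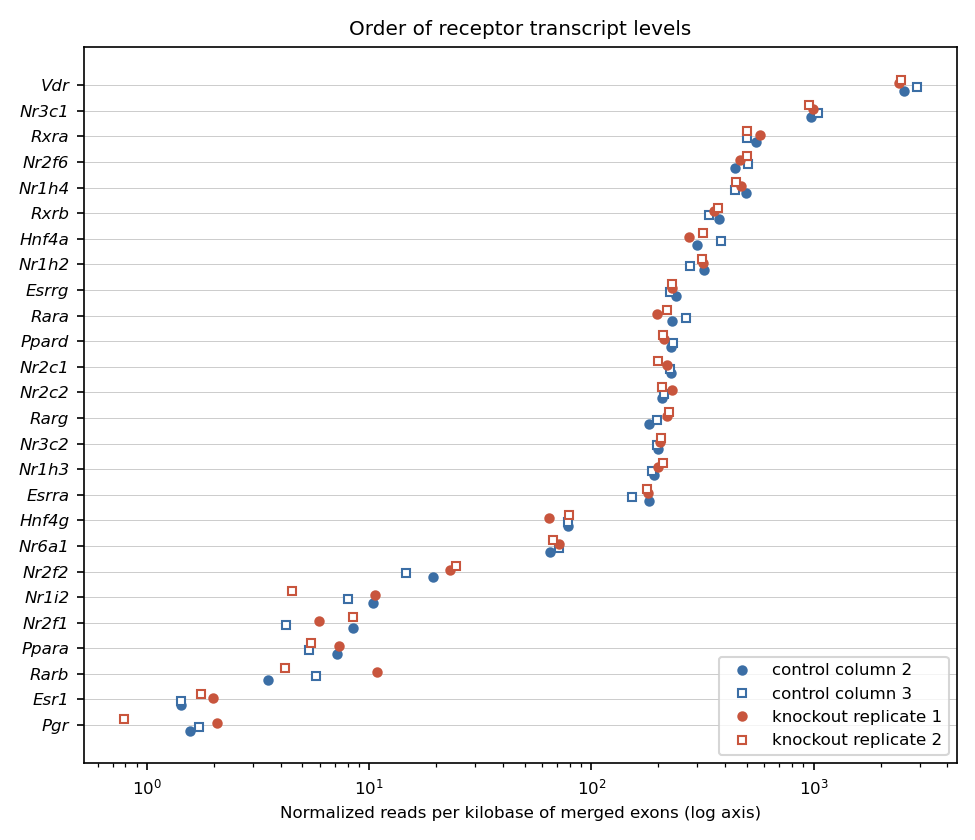
Level per kilobase of merged exons (log axis) of the 26 compared receptor genes, with 1 point per library. Levels fall from 2595 for Vdr to 1.53 for Pgr, with 17 genes above 100 and 9 below.

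The comparison between genotypes asked whether receptor transcripts differed in knockout islets. None of the 26 receptor genes passed the limma test, with 0 higher and 0 lower at an adjusted p under 0.05, where 0.621% of all 16589 tested rows passed (0.247% higher and 0.374% lower). The lowest adjusted p was 0.202, for Nr2f2. The median log2 fold change was 0.02, beside 0.00 over all tested rows, and 24 of the 26 values were within 0.5 of 0, beside 92.9% of all tested rows. At an unadjusted p under 0.05 there were 5 of 26 (19.2%), with Nr2f2 and Rarg higher and Rara, Vdr and Ppard lower, beside 14.1% of tested rows (6.74% higher and 7.34% lower). That count was 3 under a common upper quartile and without the variance trend. Leaving out a library moved it both up and down and changed which genes were counted. The 2 genotypes did not overlap for 9 of 26 (34.6%), 5 higher and 4 lower, beside 45.0% of tested rows (22.0% higher and 23.0% lower). Neither share was far above the background. edgeR on the recovered reads called 0 of 26, where it called 0.772% of all rows, and 5 had an unadjusted p under 0.05 (14.1% of rows). DESeq2 gave no adjusted p for 6 of the 26 and called 0 of the other 20, where it called 1.94% of all rows, and 3 had an unadjusted p under 0.05 (7.9% of rows). Robust limma called 0 of 26, where it called 1.26% of all rows. Of the 20 receptor genes given an adjusted p in the authors' deposited table, 0 were under 0.05, and the lowest was 0.392. Among all genes given one there, 314 of 13381 were under 0.05.

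For the 20 genes with a mean of at least 100, the 95% intervals of the log2 fold change lay between -0.46 and 0.87. For the 6 with a mean under 100 they lay between -1.39 and 1.58, so 2-fold changes were within the intervals of some of these genes. In bulk RNA, fewer cells of a type and less RNA per cell cannot be told apart.

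**Figure D3:**
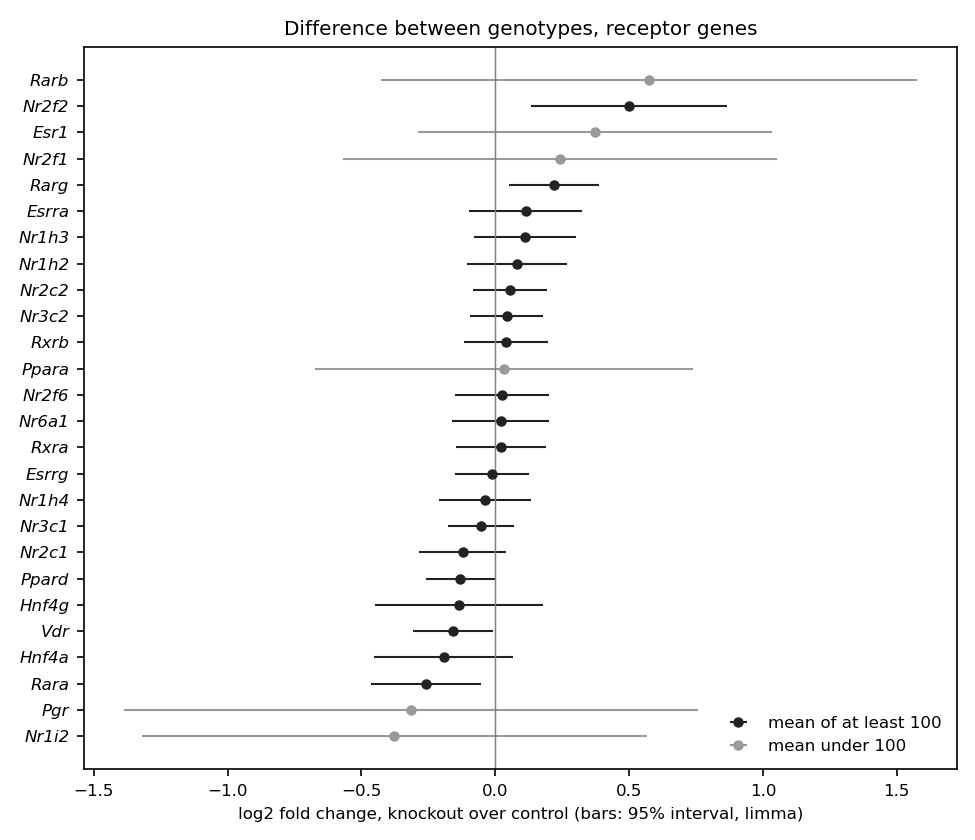
Log2 fold change (knockout over control) of the 26 compared receptor genes, with 95% intervals from limma as bars. Dark points have a mean count of at least 100 and grey points a lower mean. The intervals of Nr2f2, Rarg, Rara, Vdr and Ppard exclude 0 singly, and none of these genes passed after adjustment.

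Among the retinoic acid receptors, Rara and Rarg lay on opposite sides of 0. Rara (ENSMUSG00000037992, GRCm38 chromosome 11, 98927818 to 98974942, plus strand) stood at 1002 and 1168 in controls and at 859.7 and 952.2 in knockouts, the knockouts below both controls. Its mean was 1085 ± 117 in controls and 906 ± 65.4 in knockouts (SD over n = 2 libraries), a log2 fold change of -0.26 ± 0.09 (limma adjusted p = 0.240). It was -0.15 without control column 3 and -0.37 without control column 2. Rarg (ENSMUSG00000001288, chromosome 15, 102234938 to 102257517, minus strand) stood at 775.5 and 844.6 in controls and at 935.7 and 949.3 in knockouts, above both controls. Its mean went from 810.1 ± 48.9 to 942 ± 9.63 (SD over n = 2 libraries), a log2 fold change of 0.22 ± 0.07 (limma adjusted p = 0.221). RARA and RARG proteins bind the same class of retinoic acid response elements.

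Per kilobase, the ratio of Rara to Rarg was 1.26 and 1.35 for the controls, against 0.897 and 0.979 for the knockouts. Rara was the more abundant of the pair in both controls. The order in knockout replicate 2 rested on the exon lengths of 4365 and 4261 bases, since the reads there were 993 for Rara and 990 for Rarg. This ratio was 1 of 9 formed between related receptors after the values were seen, of which 3 did not overlap between genotypes. Among single tested rows 45.0% did not overlap. No such share was computed for ratios, so nothing is read from 3 of 9. The ratio of Rara to Rarg is given as a description, with no test. The others that did not overlap were Nr2c2 to Nr2c1 (0.911 and 0.942 against 1.06 and 1.04) and Esrrg to Esrra (1.33 and 1.49 against 1.28 and 1.30).

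**Figure D4:**
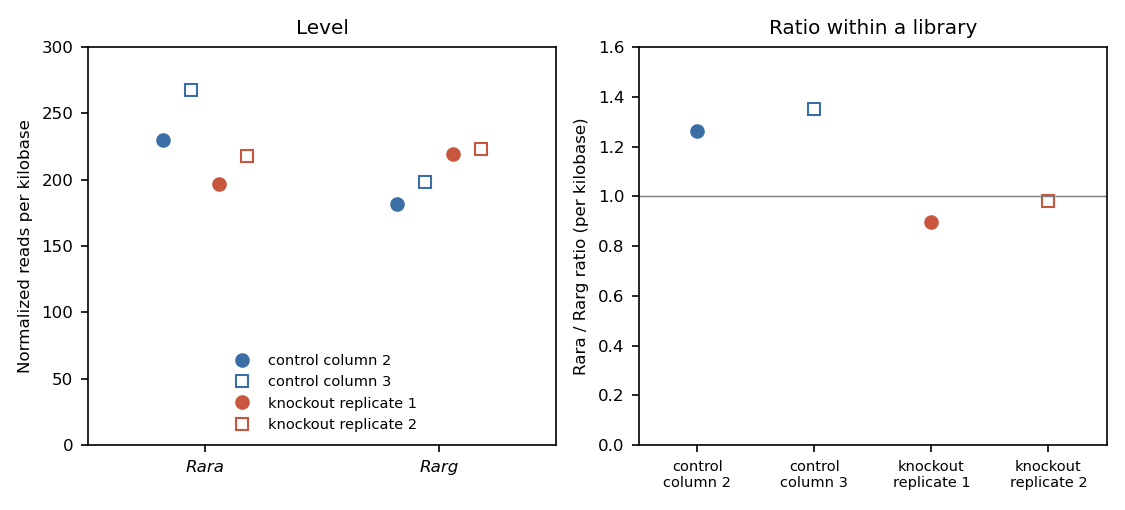
Left, level per kilobase of Rara and Rarg in each library. Right, the ratio of Rara to Rarg within each library, with a line at 1. The control ratios are 1.26 and 1.35 and the knockout ratios 0.897 and 0.979.

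Rarb, itself a textbook retinoic acid target through the repeat printed above, was low in islets. It stood at 18.4 and 30.2 in controls and at 57.2 and 22.1 in knockouts, so the genotypes overlapped and knockout replicate 1 was highest. The log2 fold change was 0.58 ± 0.44 (limma adjusted p = 0.626), and it was -0.09 without knockout replicate 1. Exons of Rarb overlap those of Top2b on the opposite strand over 1793 bases, and Top2b had a mean of 4402. The strand setting of the counting is not given in the sources used here, so reads of the 2 genes may not be separated. Cyp26a1 had 1 and 3 reads in controls and 0 and 1 in knockouts, too few to compare.

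The retinoid X receptors, shared partners of many other members, were close between genotypes. Rxra stood at 3007 and 2751 in controls and at 3119 and 2731 in knockouts, and its log2 fold change of 0.02 had a 95% interval from -0.15 to 0.19. Rxrb stood at 1484 and 1340 against 1420 and 1478, with an interval from -0.12 to 0.20. Both overlapped between genotypes. Rxrg had at most 2 reads in any library and was not compared.

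Among fatty acid and sterol sensors, Ppard, which encodes a fatty acid receptor, was the one whose interval excluded 0. It stood at 1719 and 1746 in controls and at 1590 and 1575 in knockouts, both below the controls. The log2 fold change was -0.13 ± 0.06 (limma adjusted p = 0.344). Ppara, the receptor best known from liver, stood between 20.5 and 28.1 in the 4 libraries, and Ppard was 28.9 to 43.6 times its level per kilobase. Nr1h2 and Nr1h3, the liver X receptor genes, which respond to oxysterols, had log2 fold changes of 0.08 (95% interval -0.10 to 0.27) and 0.11 (-0.08 to 0.30). Nr1h3 stood at 479.2 and 473.5 in controls and at 502.7 and 525.5 in knockouts, just above them.

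Vdr (ENSMUSG00000022479, chromosome 15, 97854425 to 97910630, minus strand) was lower in both knockout libraries than in either control. Its mean went from 15473 ± 1511 to 13846 ± 212 (SD over n = 2 libraries), and the log2 fold change was -0.16 ± 0.07 (limma adjusted p = 0.329). The difference depended on 1 control library: without control column 2 the log2 fold change was -0.26, and without control column 3 it was -0.06. The summed acinar markers were also lower in these knockout islets, as given above, and their part in the lower values of Vdr, Rara, Ppard and Nr2c1 was not tested. Nr1h4 stood at 1141 and 1024 in controls and at 1080 and 1025 in knockouts, with an interval of the log2 fold change from -0.21 to 0.13. Nr1i2, the xenobiotic receptor PXR, was low at 26.6 and 20.5 against 27.1 and 11.5. Nr1i3, the related receptor CAR, had 5 to 12 reads per library and was just outside the filter. Of its 4414 exon bases, 3304 overlap exons of Tomm40l on the opposite strand, and Tomm40l had a mean of 1451. Reads of Nr1i3 and Tomm40l may not be separated, since the strand setting is not given, so the level of Nr1i3 is uncertain.

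Hnf4a encodes a regulator of islet and liver gene expression. It stood at 1440 and 1852 in controls and at 1329 and 1534 in knockouts, and the groups overlapped. The log2 fold change was -0.19 ± 0.11, with a limma adjusted p of 0.512 and a 95% interval from -0.45 to 0.07. Without control column 3 it was -0.01, and without control column 2 it was -0.37. Its paralogue Hnf4g stood at 206.4 and 206.5 against 169.6 and 208.1, and Hnf4a was 3.80 to 4.88 times Hnf4g per kilobase.

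Nr2f2 (ENSMUSG00000030551, chromosome 7, 70351944 to 70366735, minus strand) had the largest log2 fold change of the genes with a mean of at least 100. It encodes COUP-TFII, an orphan receptor found in venous endothelium and mesenchyme as well as in islet cells. The counts were 167.6 and 125.7 in controls and 198.8 and 212.9 in knockouts, both above the controls. The mean went from 146.6 ± 29.6 to 206 ± 9.96 (SD over n = 2 libraries) (log2 fold change 0.50 ± 0.16, limma adjusted p = 0.202). It was 0.71 without control column 2 and 0.29 without control column 3. Stellate cell and fibroblast markers in the same knockout islets summed to 1.52 times their control level, with a median log2 fold change of 0.71. Endothelial markers overlapped between genotypes, at 24817 to 28754 in controls and 27026 to 28933 in knockouts (6 of 7 above 0). Their part in the Nr2f2 difference was not tested.

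The other orphan receptors overlapped or differed little. Nr2c1, the gene of testicular receptor TR2, stood at 1051 and 1038 in controls and at 1004 and 917.6 in knockouts, with a log2 fold change of -0.12 ± 0.07 that was -0.06 without knockout replicate 2 and -0.19 without knockout replicate 1. Nr2c2, the gene of TR4, stood at 3104 and 3170 against 3436 and 3092. Nr2f6 stood at 1326 and 1514 against 1390 and 1497, and Nr6a1, the germ cell nuclear factor gene, at 707.1 and 770.6 against 773.3 and 725.9. Nr2f1, the gene of COUP-TFI, was low at 42.9 and 21.4 against 30.2 and 43.1. Exons of Nr2c2 overlap Mrps25, and those of Nr2f6 overlap Ocel1, in both cases on the opposite strand.

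Among the steroid receptors, Nr3c1 stood at 7477 and 8064 in controls and at 7668 and 7305 in knockouts. Its log2 fold change of -0.05 had a 95% interval from -0.18 to 0.07, one of the narrowest of the set. Nr3c2, the mineralocorticoid receptor gene, stood at 1295 and 1276 against 1313 and 1336, a separation without overlap that came to a log2 fold change of 0.04 (95% interval -0.09 to 0.18). Nr3c1 was 4.61 to 5.32 times Nr3c2 per kilobase. Esr1, the estrogen receptor alpha gene, was low at 19.4 and 19.5 in controls and 27.1 and 24.0 in knockouts (log2 fold change 0.37 ± 0.29, limma adjusted p = 0.632). Pgr, the progesterone receptor gene, stood at 13.3 and 14.6 against 17.7 and 6.71, and was the gene just inside the filter, with 10 or more in 3 libraries. Esr2, the estrogen receptor beta gene, had 0 reads in 3 libraries and 3 reads in knockout replicate 2.

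The estrogen-related receptors are orphan receptors linked to oxidative metabolism. Esrrg stood at 1493 and 1403 in controls and at 1432 and 1437 in knockouts, with a 95% interval of the log2 fold change from -0.15 to 0.13. Esrra stood at 794.9 and 666.3 against 792 and 782.4. Both overlapped between genotypes. Esrrb had 1 to 4 reads per library.

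The remaining genes below the filter were at or near 0. Nr0b2, which encodes the corepressor-like receptor SHP, had 2 and 3 reads in controls and 1 and 1 in knockouts. Nr5a1, the steroidogenic factor 1 gene, had at most 1 read per library. Rorb, the gene of a retinoid-related orphan receptor, had 1 and 11 reads in controls and 1 and 4 in knockouts. Nr0b1, Nr2e1 and Nr2e3 had 0 reads in every library, which allows up to 3 reads per library by counting error alone.

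Genes that work with these receptors were described in 12 lists, with 133 tested entries, of which 2 were higher and 2 lower and 129 did not pass the limma test, beside 0.247% higher and 0.374% lower over all tested rows. The lists were chosen with earlier results known, so nothing is read from that comparison. All 4 calls ended with no filter on low values and without the variance trend. None of the 28 tested coregulators passed (10 above 0 and 18 below, median -0.06). The corepressor gene Ncor1 stood at -0.13 ± 0.07 and the corepressor-complex gene Tbl1x at 0.04 ± 0.05 on the log2 scale. None of 11 chaperones of steroid receptors passed (median 0.00), with the heat shock protein genes Hsp90ab1 at 0.00 ± 0.07 and Dnajb1 at 0.00 ± 0.08.

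In retinoid handling, 1 of 10 tested genes rose and 9 did not pass, with 8 above 0 and a median of 0.33. Rbp4, the retinol-binding protein of plasma and also a delta-cell marker in islets, stood at 5220 and 5312 in controls and at 6385 and 6328 in knockouts. The log2 fold change was 0.27 ± 0.05 (limma adjusted p = 0.0475). The limma adjusted p was 0.0571 when control column 3 was left out, and 0.0996 or 0.0697 when knockout replicate 1 or 2 was. Scaling to a common total ended the call too (0.05005), as did a filter at 50 (0.0526). The summed delta-cell markers, Rbp4 included, stood at 124614 and 126505 in controls and at 130154 and 142182 in knockouts. Its relation to the Rbp4 difference was not tested.

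In the glucocorticoid target list, 2 of 13 tested genes fell, 0 rose and 11 did not pass, with 7 above 0 and a median of 0.04. Nfkbia, which encodes an NF-kB inhibitor, stood at 7401 and 7606 in controls and at 5242 and 5500 in knockouts, a log2 fold change of -0.48 ± 0.05 (limma adjusted p = 0.0163). Mt2, a metallothionein gene, stood at 9221 and 10902 against 6637 and 7576, a log2 fold change of -0.50 ± 0.09 (limma adjusted p = 0.0475), and the call ended without control column 3 (0.0681), with a filter at 50 (0.0599) and with robust limma (0.0749), besides the settings named above. Both genes respond to other signals as well.

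Among steroid enzymes and estrogen-linked genes, 1 of 8 tested rose and 7 did not pass, with a median of 0.31. Hsd11b1, whose enzyme regenerates active glucocorticoid inside cells, stood at 14.3 and 12.7 in controls and at 63.5 and 46.0 in knockouts. The knockouts were well above the controls, a log2 fold change of 1.93 ± 0.29 (limma adjusted p = 0.0366). The adjusted p was 0.0501 without control column 3 and 0.0878 without knockout replicate 1. Stellate cell and fibroblast markers moved the same way, as given above, and their part in the Hsd11b1 difference was not tested.

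No gene of the other 7 lists passed. The medians were 0.02 for 16 PPAR targets, 0.02 for 12 liver X receptor targets, 0.14 for 5 bile acid genes and -0.06 for 7 xenobiotic genes. They were 0.07 for 4 vitamin D genes, 0.16 for 7 HNF4A targets and 0.01 for 12 targets of estrogen-related receptors and PGC-1. The most abundant genes of each list are given next as log2 fold changes with standard errors. Hadha, a fatty acid oxidation gene, stood at 0.03 ± 0.05. The cholesterol exporter gene Abca1 stood at -0.20 ± 0.11 and Lpl, which encodes lipoprotein lipase, at 0.08 ± 0.05. Abcb4, a phospholipid exporter gene of bile, stood at 0.08 ± 0.07, and the oxysterol hydroxylase gene Cyp7b1 at 0.20 ± 0.10. Por, the gene of the reductase that serves cytochromes P450, stood at -0.06 ± 0.05 and the heme synthesis gene Alas1 at 0.01 ± 0.07. Gc, the vitamin D-binding protein gene, stood at 0.36 ± 0.07 (limma adjusted p = 0.0663) and the calcium-binding protein gene Calb1 at 0.04 ± 0.06. Ttr, which encodes transthyretin, stood at 0.24 ± 0.12 and Cltrn, which encodes collectrin, at 0.19 ± 0.06. Atp5b, which encodes a subunit of mitochondrial ATP synthase, stood at 0.02 ± 0.05. Gc and Ttr are also abundant in alpha cells, whose summed markers were higher in the same libraries, and their part was not tested.

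**Figure D5:**
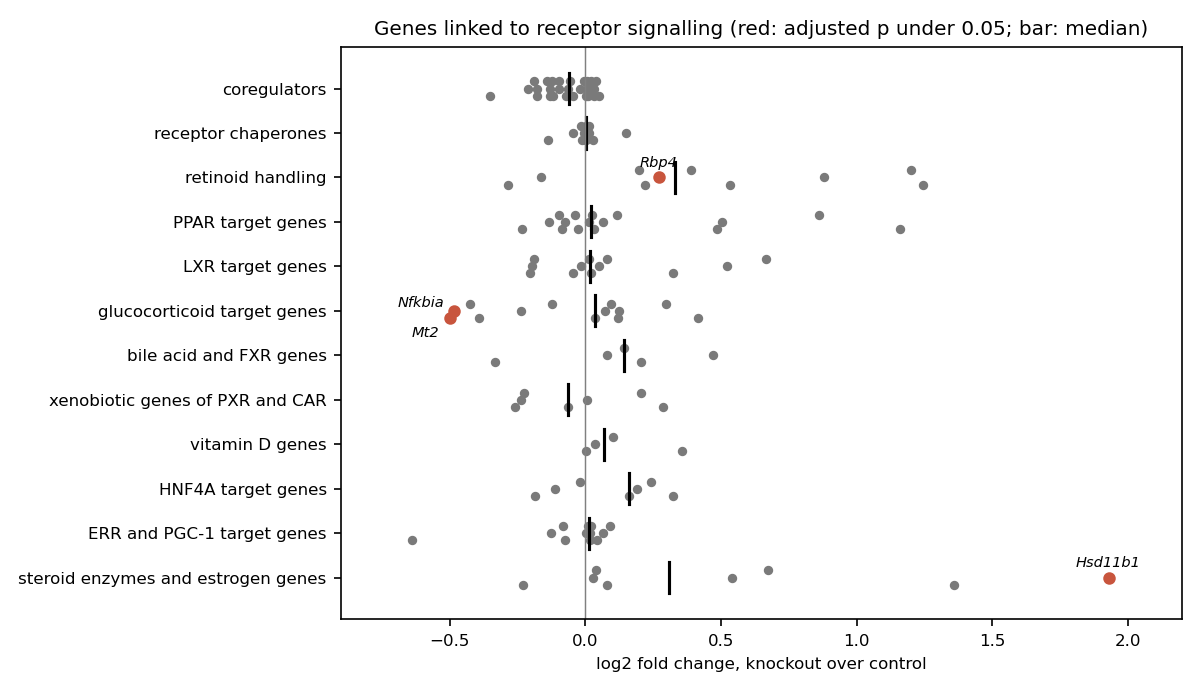
Log2 fold changes (knockout over control) of the tested genes in 12 lists linked to receptor signalling, with 1 point per gene, red where the limma adjusted p was under 0.05 and a bar at each median. Rbp4 and Hsd11b1 lie to the right and Nfkbia and Mt2 to the left, and the coregulators and chaperones lie close to 0.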

How the data were processed

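Libraries were made from poly(A)-enriched RNA, per the labels' protocols. Per the submitters' processing notes, the tools were CASAVA 1.4, STAR 2.5.1b and featureCounts 1.6.0, then DESeq2 1.22.2, and the build GRCm38. What each tool did is not stated, and neither the annotation nor the use of strand is given in the sources used here. The values deposited by the authors are a signal, namely reads per gene scaled by one factor for each library. Undoing that factor returned whole reads (within 0.01 of a read) for 100% of values. The deposited log2 fold change of the authors, with its standard error, its statistic (a score) and its p-values, was used only where named. Both knockout columns carry their sample's name. Control columns are numbered 2 and 3, which does not settle their sample, so they were matched to the group.

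Of the rows, 16589 reached 10 in 2 or more of the 4 libraries. These were fitted together by limma 3.58.1 (R 4.3.3) as log2(value + 1), which understates the change of low genes. The fit used a trend of variance with level, and two-sided p-values were adjusted by Benjamini-Hochberg over all these rows, with a threshold of 0.05. Replicates differed beyond sampling noise (chi-square over degrees of freedom 10.1 and 9.85), and p-values measure the spread between these pools. Exon lengths and coordinates came from GENCODE M21, which holds 99.4% of the identifiers. The fit was tested on simulated data. edgeR 4.0.16 and DESeq2 1.42.0 on the recovered reads, other pseudocounts, filters and scalings, and leaving out each library were alternatives. Every receptor gene is named, and of each list the genes past the test or else its 2 most abundant, except that some of these genes are not reported here. Members and lists were chosen with earlier results of these data known, and the promoter windows and ratios after values were seen.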

Additional observations from a re-analysis of the deposited data

How the results depend on the processing

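Of 358 log2 fold changes of receptor genes under 14 alternatives, 335 kept their direction and were not called, 22 changed sign and 1, Vdr without control column 2, passed the test (limma adjusted p = 0.0462). Of the sign changes 21 came from leaving out a library, and the other was Esrrg under a common upper quartile (0.0063). Leaving out each library gave Rarb -0.093 to 1.24, Rxra -0.075 to 0.12, Rxrb -0.035 to 0.11, Ppara -0.17 to 0.24, Nr1h2 -0.027 to 0.19, Nr1h4 -0.12 to 0.039, Nr1i2 -0.96 to 0.21, Hnf4g -0.28 to 0.011, Nr2c2 -0.021 to 0.13, Nr2f1 -0.24 to 0.73, Nr2f6 -0.069 to 0.12, Esrra -0.014 to 0.24, Esrrg -0.057 to 0.032, Nr3c1 -0.11 to 0.0014, Pgr -0.95 to 0.32 and Nr6a1 -0.041 to 0.083. The count of receptor genes lower was 0 to 1 in these fits, and that of genes higher 0 in all of them.

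Over all rows, 41 were higher and 62 lower, or 57 and 55 under a common upper quartile. These counts were 1 and 1 with no filter on low values, 19 and 32 with a filter at 50, 0 and 0 without the trend, 85 and 124 with robust empirical Bayes, 120 and 202 with DESeq2, and 58 to 207 and 49 to 241 without 1 library, the highest being those without control column 2. Genes of the related lists, 2 higher and 2 lower, were 0 and 0 with no filter and without the trend, 0 and 1 with a filter at 50, 4 and 4 with DESeq2, and 0 to 8 and 2 to 5 without 1 library. With a common total 1 was higher, and with robust empirical Bayes 1 was lower. The Ggcx call ended with no filter, without the trend and with robust empirical Bayes, at the same -3.35. The causes were not tested. No paired analysis was possible because the numbers of the control columns do not match those of the control samples in the labels.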

Other observations

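Of 28 coregulator genes 18 lay below 0, where 8279 of all 16589 tested rows did, and 6531 of the 12244 with a mean of at least 100. None passed the limma test, and 6 had an unadjusted p under 0.05, all lower in knockout islets, beside 7.34% lower over all tested rows. Among the 12244 rows with a mean of at least 100, 1127 were lower at that level. Over all lists 17 of 133 entries were higher and 16 lower at that level, and in the glucocorticoid list 2 and 5 of 13. The coregulators named here were chosen for naming after their values were seen. Ppargc1a, which encodes the coactivator PGC-1 alpha, stood at 652 and 632 in controls and at 577 and 439 in knockouts (log2 fold change -0.35 ± 0.12, limma adjusted p = 0.238). Among the others were Ncoa1, Ncoa2, Nrip1 and Sirt1, with log2 fold changes from -0.21 to -0.12 and adjusted p-values of 0.173 or more.

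Among the retinoid genes that did not pass, some that make or break down retinoic acid were also named after their values were seen. Aldh1a1, which makes retinoic acid, stood at 13.3 and 21.4 in controls and at 45.8 and 37.4 in knockouts (log2 fold change 1.24 ± 0.32, limma adjusted p = 0.117). Aldh1a3, of the same enzyme family, stood at 680.5 and 279.6 in controls and at 1242 and 813 in knockouts (log2 fold change 1.20 ± 0.35, limma adjusted p = 0.156). Cyp26b1, which degrades it, stood at 292.2 and 488.1 against 1334 and 363.4, with knockout replicate 1 apart from the other 3 libraries. Summed stellate cell and fibroblast markers were higher in the same knockout islets (1757 to 2312 in controls, 3514 in knockout replicate 1 and 2683 in knockout replicate 2), and their part in these differences was not tested.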
